A study of Mus musculus with 16 samples.

Results

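The genes described here are those of MHC class II antigen presentation: the class II chain genes H2-Aa, H2-Ab1 and H2-Eb1, the invariant chain gene Cd74, the peptide-loading genes H2-DMa, H2-DMb2, H2-Oa and H2-Ob, the transactivator gene Ciita and the thiol reductase gene Ifi30. They were taken by name, as every probe set annotated with exactly 1 of these symbols. This gave 20 probe sets of 10 genes, out of 34958 probe sets and 18194 genes in all. H2-Aa had 4 probe sets, H2-Ab1, H2-DMb2 and Ciita had 3 each, H2-DMa had 2, and the others had 1 each. A further 4 probe sets that also carried another symbol were left out, 2 of them shared by H2-DMb2 and its near-identical neighbour H2-DMb1. RNA came from cells of the peritoneal cavity sorted as tumour-associated macrophages and was measured on 16 Affymetrix mouse arrays.

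The arrays fell into 4 groups of 4: CCR2+ RbpjiΔEC, CCR2+ Control, CCR2- RbpjiΔEC and CCR2- Control. All mice were C57BL/6N females, were given 1 mg of tamoxifen once by mouth at 8 to 12 weeks of age, received ID8-luc ovarian cancer cells in the peritoneal cavity 3 weeks later, and carried the tumour for 4 weeks. RbpjiΔEC names an induced deletion of Rbpj, which encodes the transcription factor through which Notch receptors act, in endothelial cells, so the deletion was aimed at vessels and not at the sorted cells. The Cre driver and the genotype of the Control mice are not given in the sources used here. No label says that the 4 arrays of a group came from separate animals, so the p-values measure only the spread between these samples, and that spread may be technical.

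MHC class II molecules display peptides from engulfed material to CD4 T cells. In the endoplasmic reticulum an alpha and a beta chain assemble with the invariant chain, which fills the peptide groove and directs the complex to endosomes. There proteases trim the invariant chain, the heterodimer H2-DM removes its last fragment and exchanges peptides, and the heterodimer H2-O restrains H2-DM, chiefly in B cells. The transactivator CIITA binds no DNA by itself but assembles on factors bound to the class II promoters. B cells and dendritic cells make class II molecules constantly, while macrophages make them in amounts that vary with their origin and with interferon gamma.

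The promoters of class II genes carry short elements, the X and Y boxes, on which CIITA is recruited, and they are shown because they are the shared sequence feature of genes whose values are compared below. RefSeq promoter windows of 300 bases (GRCm38.p6), from 250 bases before the start site, were used for 7 of the 10 genes, in 8 windows. Promoters of H2-Ab1, Cd74 and Ciita are not analysed here. The letters TGATTGG (the Y box core), GCAAC (an X1 box core), ATGATGC (X2 box letters) and TGACGTCA (the cyclic AMP response element) were searched on both strands, and no 2 of these matches overlapped in the stretches shown. These letters were chosen with the sequences in view. In 5 genes the window held TGATTGG, in H2-Aa, H2-Eb1, H2-DMb2, H2-Oa and H2-Ob, while neither the 2 windows of H2-DMa nor that of Ifi30 held it. Each stretch below runs 5′ to 3′ on the strand of its gene, with matches to the searched letters in capitals.
H2-Aa, chr17:34287854-34287933, minus strand: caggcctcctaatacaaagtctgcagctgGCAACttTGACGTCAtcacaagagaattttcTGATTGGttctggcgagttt
H2-Eb1, chr17:34305746-34305825, plus strand: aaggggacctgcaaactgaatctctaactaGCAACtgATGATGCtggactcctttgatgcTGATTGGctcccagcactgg
H2-DMb2, chr17:34145097-34145176, plus strand: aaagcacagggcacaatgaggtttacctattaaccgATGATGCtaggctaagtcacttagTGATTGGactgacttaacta
H2-Oa, chr17:34092274-34092353, plus strand: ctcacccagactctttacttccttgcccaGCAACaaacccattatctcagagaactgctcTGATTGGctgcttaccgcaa
H2-Ob, chr17:34238786-34238865, plus strand: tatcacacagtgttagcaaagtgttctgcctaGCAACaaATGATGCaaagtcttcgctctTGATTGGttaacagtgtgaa
Counted from the start site, the first base of TGATTGG lay at position -50 in H2-Aa, -61 in H2-Eb1, -92 in H2-DMb2, -45 in H2-Oa and -59 in H2-Ob. Among all 32851 promoter windows of the same length, 7.82% held TGATTGG, 35.2% GCAAC, 2.46% ATGATGC and 1.79% TGACGTCA, and 3.07% held TGATTGG together with GCAAC or ATGATGC. A match is a description of the letters and not a measured binding site.

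Levels below are log2 intensities after quantile normalization over the 16 arrays, and differences are log2 differences. A bacterial trp control on the array, measured by 3 probe sets, read 6.03 to 6.72, and 0.1% of all values lay above 13.51, so differences against levels near either end are compressed. The mean deposited intensity of an array was between 821 and 827 under the CCR2+ label and between 481 and 762 under the CCR2- label, and the columns of the 2 labels were of different kinds, so sort label and kind of column cannot be told apart. The labels went against gate markers: Adgre1, which encodes F4/80, averaged 13.25 in CCR2+ Control and 9.21 in CCR2- Control arrays, and Itgam, which encodes CD11b, averaged 12.71 and 9.46 in the same groups. Ccr2 itself was not higher under its own label: it read 7.11 to 8.23 in CCR2+ RbpjiΔEC, against 7.58 to 10.73 in CCR2- RbpjiΔEC arrays (-1.26, limma adjusted p = 0.133), and 6.87 to 9.27 in CCR2+ Control, against 9.02 to 11.51 in CCR2- Control arrays (-1.99, adjusted p = 0.0179), with overlapping ranges in both. CCR2+ and CCR2- below are the names on the arrays and not a phenotype measured here. The 3' minus 5' actin signal is a log2 measure of RNA quality. It was 0.162 to 0.275 in CCR2+ Control and 0.333 to 0.409 in CCR2- Control arrays, which did not overlap. In RbpjiΔEC mice it was 0.205 to 0.384 in CCR2+ and 0.254 to 0.431 in CCR2- arrays. Its part in the label differences was not tested. Rbpj averaged 11.43 in CCR2+ RbpjiΔEC and 11.36 in CCR2+ Control arrays, and its deletion was aimed at endothelial cells.

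Class II genes were lower in the CCR2+ than in the CCR2- arrays in both genotypes. In RbpjiΔEC mice 17 of the 20 probe sets were lower, 2 were higher and 1 did not pass (limma, adjusted p under 0.05), where 20.3% of all probe sets were lower, 18.8% were higher and 39.1% were called in all. In Control mice 16 were lower, 2 were higher and 2 did not pass, where 20.7% of all probe sets were lower, 20.9% were higher and 41.6% were called in all. The median difference of the 20 probe sets was -2.54 in RbpjiΔEC mice and -2.18 in Control mice, beside -0.02 over all probe sets in each. The CCR2+ and CCR2- groups did not overlap for 18 member probe sets in RbpjiΔEC mice, where 38.2% of all probe sets did not overlap, and for 17 in Control mice, where 37.6% did not. Over all probe sets the split between higher and lower moved with the scaling: in RbpjiΔEC mice 6589 were higher and 7097 lower after quantile normalization, 6987 and 6039 after median centring, and 10954 and 2246 as deposited. In Control mice 7309 were higher and 7225 lower after quantile normalization, 8606 and 5223 after median centring, and 8777 and 3397 as deposited. The member counts in RbpjiΔEC mice were 16 lower and 1 higher after median centring and 15 lower and 2 higher as deposited, and in Control mice they were 14 lower and 2 higher after median centring and 13 lower and 2 higher as deposited.

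**Figure D1:**
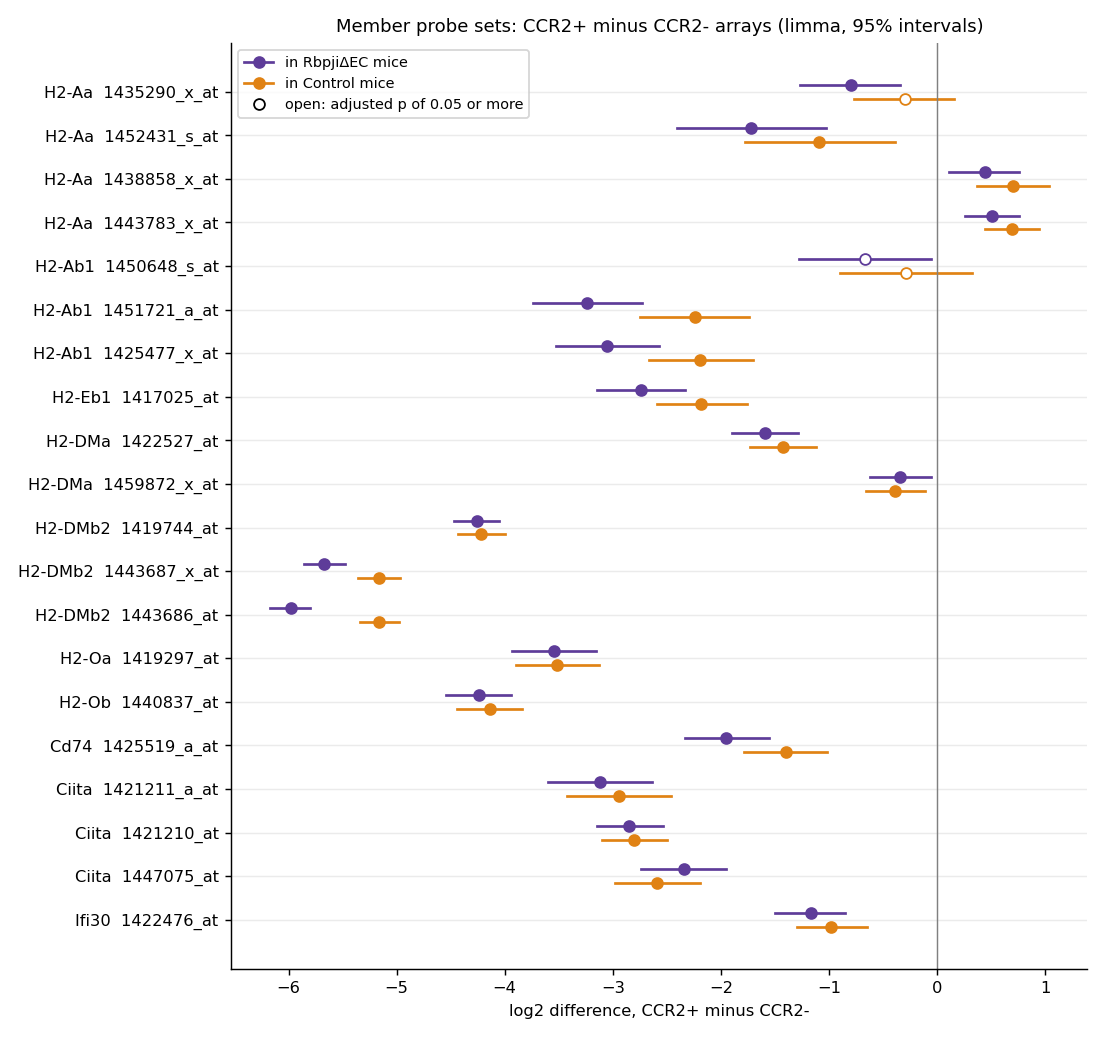
Log2 difference, CCR2+ minus CCR2- arrays, of the 20 member probe sets with 95% limma intervals, in RbpjiΔEC mice (purple) and Control mice (orange); open points did not pass. Within each genotype the 3 H2-DMb2 probe sets lie farthest to the left, at -4.26 to -5.98 in RbpjiΔEC and -4.22 to -5.16 in Control mice, and 2 of the 4 H2-Aa probe sets lie to the right of 0.

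Of the 8 probe sets of the chain genes, 5 were lower, 2 higher and 1 not called in the CCR2+ arrays of RbpjiΔEC mice, and 4 were lower, 2 higher and 2 not called in Control mice. H2-Eb1, the beta chain of I-E, read 10.72, 9.98, 10.65 and 11.32 in CCR2+ RbpjiΔEC arrays, against 13.39, 13.42, 13.43 and 13.40 in CCR2- RbpjiΔEC arrays. Control mice gave 11.45, 11.16, 11.30 and 10.87 in CCR2+ arrays, against 13.26, 13.46, 13.39 and 13.38 in CCR2- arrays. Every CCR2+ array lay below every CCR2- array in both genotypes, with differences of -2.74 (SE 0.20, limma adjusted p = 6.05e-09) in RbpjiΔEC mice and -2.18 (SE 0.20, limma adjusted p = 1.08e-07) in Control mice. The CCR2- values were near the top of the scale, where a difference is compressed.

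H2-Ab1 encodes the beta chain of I-A. Its probe set 1451721_a_at read 9.37, 8.49, 9.33 and 9.95 in CCR2+ RbpjiΔEC arrays, against 12.45, 12.50, 12.64 and 12.49 in CCR2- RbpjiΔEC arrays. The Control values were 10.75, 10.15, 10.24 and 9.71 in CCR2+ arrays, against 12.38, 12.65, 12.43 and 12.38 in CCR2- arrays. The groups did not overlap, and the differences were -3.24 (SE 0.24) and -2.24 (SE 0.24). H2-Ab1 probe set 1425477_x_at, of a kind that may bind other transcripts, gave -3.05 and -2.19. The third, 1450648_s_at, which may read several transcripts, gave -0.67 (limma adjusted p = 0.0793) in RbpjiΔEC mice and -0.29 (adjusted p = 0.469) in Control mice, where its 4 values were 12.22, 12.13, 12.08 and 11.84 in CCR2+ arrays and 11.69, 12.81, 11.93 and 13 in CCR2- arrays. In Control mice the CCR2+ arrays lay inside the range of the CCR2- arrays, and the Control difference was 0.25 after median centring and 0.31 as deposited. Without CCR2+ RbpjiΔEC array 4 the RbpjiΔEC difference passed (-0.84, limma adjusted p = 0.0398).

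H2-Aa encodes the alpha chain of I-A, and its 4 probe sets disagreed in direction. Probe set 1452431_s_at of H2-Aa read 10.75, 10.07, 11.88 and 12.28 in CCR2+ RbpjiΔEC arrays, against 12.98, 12.93, 12.97 and 12.98 in CCR2- RbpjiΔEC arrays. In Control mice it read 11.69, 12.21, 11.82 and 11.81 in CCR2+ arrays, against 12.81, 13.06, 12.97 and 13.03 in CCR2- arrays. No CCR2+ array reached a CCR2- array, and the differences were -1.72 (SE 0.33) and -1.09 (SE 0.33), the second of which did not pass after median centring (-0.55, limma adjusted p = 0.214) or as deposited (-0.49, adjusted p = 0.231). H2-Aa probe set 1435290_x_at gave -0.80 (SE 0.22, limma adjusted p = 0.00733) and -0.30 (SE 0.22, adjusted p = 0.296), and its Control difference was 0.23 after median centring and 0.28 as deposited. Its RbpjiΔEC call was lost after median centring (-0.46, limma adjusted p = 0.168) and as deposited (-0.18, adjusted p = 0.646). H2-Aa probe set 1438858_x_at ran the opposite way and was higher under the CCR2+ label, by 0.44 (SE 0.16, limma adjusted p = 0.0351) and 0.70 (SE 0.16, adjusted p = 0.00153). The first of these calls was lost with the compared groups alone (adjusted p = 0.0502), without CCR2+ RbpjiΔEC array 3 (0.34, adjusted p = 0.118) or 4 (0.35, adjusted p = 0.113), and without any of the 4 CCR2- RbpjiΔEC arrays (adjusted p = 0.0573 to 0.0807). H2-Aa probe set 1443783_x_at was also higher, by 0.51 and 0.69, but its CCR2- values of 6.13 to 6.41 lay in the range of the trp control, and its RbpjiΔEC difference did not pass after median centring (0.30, limma adjusted p = 0.132). Of these 4 probe sets 3 are of the _x_at kind, which may bind other transcripts, and which of them follows H2-Aa was not tested.

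Cd74 encodes the invariant chain. It read 11.32, 11.15, 11.56 and 12.23 in CCR2+ RbpjiΔEC arrays, against 13.45, 13.51, 13.57 and 13.53 in CCR2- RbpjiΔEC arrays. Control mice gave 12.42, 12.10, 12.14 and 11.77 in CCR2+ arrays, against 13.35, 13.58, 13.53 and 13.56 in CCR2- arrays. All CCR2+ arrays lay below all CCR2- arrays, with differences of -1.95 (SE 0.18, limma adjusted p = 1.71e-07) and -1.40 (SE 0.18, adjusted p = 7.96e-06). Its CCR2- values lay among the highest 1% of all values on the arrays, which began at 12.65.

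**Figure D2:**
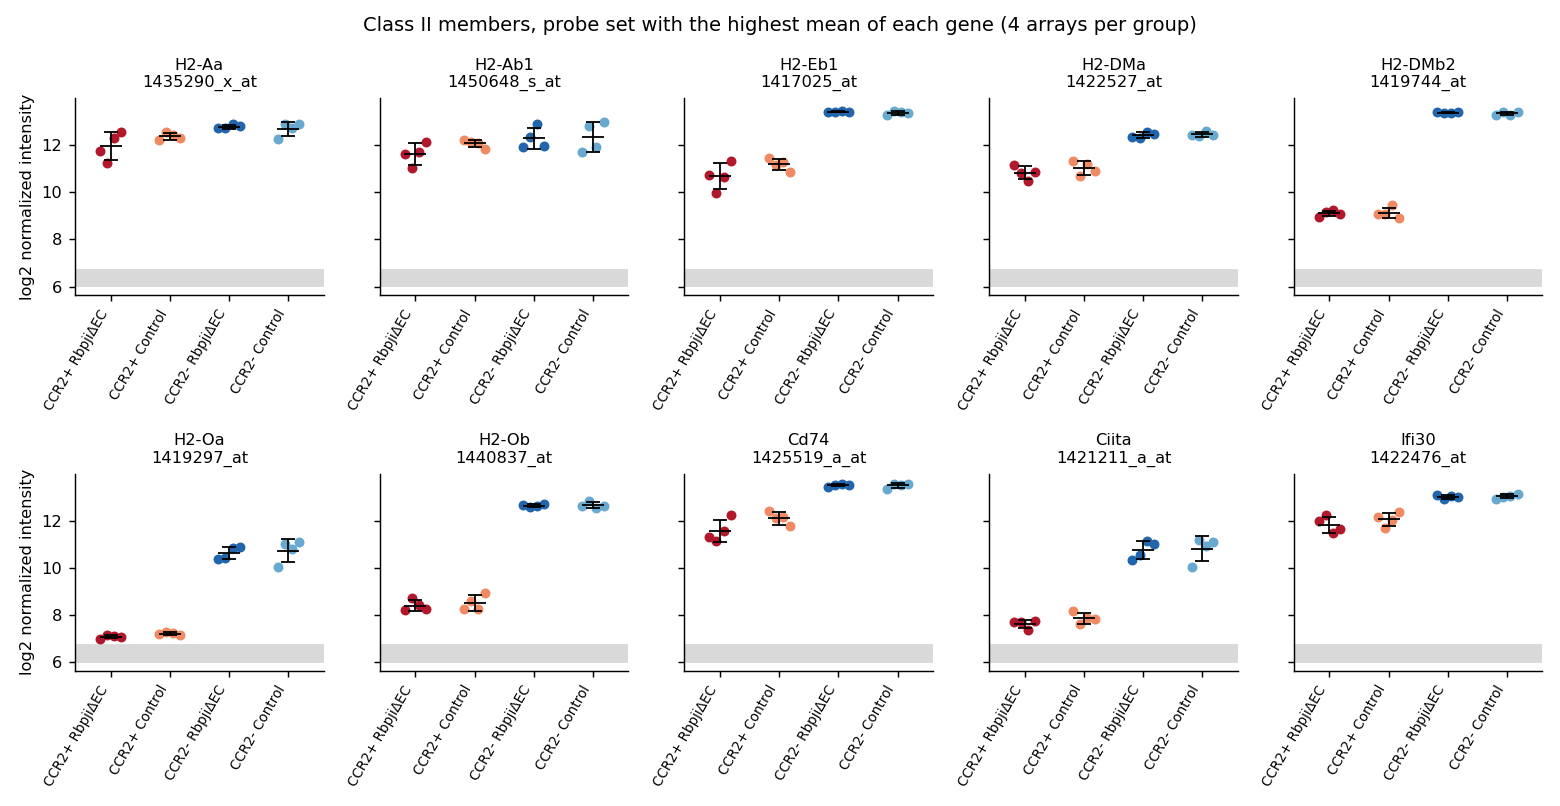
Log2 normalized intensity of the probe set with the highest mean of each gene in the 4 groups; points are arrays, black bars the mean and SD of 4 arrays, and the grey band is the trp control (6.03 to 6.72). Cd74 and Ifi30 stay above 11 in every array, while H2-Oa reads 7.00 to 7.29 under the CCR2+ label and 10.03 to 11.09 under the CCR2- label.

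The loading genes H2-DMb2, H2-Oa and H2-Ob had the most negative differences between the labels among the 10 genes. H2-DMb2 encodes a beta chain of H2-DM. Its probe set 1443686_at read 7.09, 7.08, 7.10 and 7.02 in CCR2+ RbpjiΔEC arrays, against 13.15, 13.04, 12.98 and 13.06 in CCR2- RbpjiΔEC arrays. The Control values were 7.85, 7.71, 7.73 and 8.09 in CCR2+ arrays, against 13.02, 13.07, 12.98 and 12.94 in CCR2- arrays. The groups lay far apart, by -5.98 (SE 0.09, 63.3-fold lower, limma adjusted p = 4.44e-17) and -5.16 (SE 0.09, 35.8-fold lower, adjusted p = 1.55e-16). H2-DMb2 probe set 1443687_x_at gave -5.67 and -5.16, and 1419744_at, with CCR2+ levels of 8.91 to 9.44, gave -4.26 and -4.22. Whether transcripts of H2-DMb1 bind these probe sets was not tested.

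H2-DMa, the alpha chain of the same heterodimer, differed much less. Its probe set 1422527_at read 11.16, 10.80, 10.48 and 10.86 in CCR2+ RbpjiΔEC arrays, against 12.35, 12.31, 12.57 and 12.45 in CCR2- RbpjiΔEC arrays. In Control mice it read 11.33, 10.69, 11.18 and 10.91 in CCR2+ arrays, against 12.41, 12.40, 12.60 and 12.41 in CCR2- arrays. The ranges were separate, with differences of -1.59 (SE 0.14) and -1.43 (SE 0.14). H2-DMa probe set 1459872_x_at gave -0.34 (limma adjusted p = 0.0496) and -0.39 (adjusted p = 0.0247) and lost both calls as deposited (-0.10, adjusted p = 0.75, and -0.34, adjusted p = 0.198). The RbpjiΔEC call was also lost without any 1 of the CCR2+ RbpjiΔEC arrays or of CCR2- RbpjiΔEC arrays 2, 3 and 4, and the Control call without CCR2+ Control array 1 or 2 or CCR2- Control array 2 or 3. In Control mice the 95% interval was -1.73 to -1.12 for H2-DMa 1422527_at and -4.43 to -4.00 for H2-DMb2 1419744_at, and these intervals did not overlap.

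H2-Oa and H2-Ob encode the chains of the H2-DM inhibitor H2-O. H2-Oa read 7.00, 7.16, 7.11 and 7.06 in CCR2+ RbpjiΔEC arrays, against 10.38, 10.41, 10.83 and 10.88 in CCR2- RbpjiΔEC arrays. Control mice gave 7.18, 7.29, 7.26 and 7.14 in CCR2+ arrays, against 10.03, 11.00, 10.81 and 11.09 in CCR2- arrays. Both CCR2+ groups lay little above the trp control and well below every CCR2- array, with differences of -3.54 (SE 0.18, 11.6-fold lower) and -3.52 (SE 0.18, 11.4-fold lower). H2-Ob read 8.20, 8.71, 8.44 and 8.25 in CCR2+ RbpjiΔEC arrays, against 12.67, 12.57, 12.62 and 12.70 in CCR2- RbpjiΔEC arrays. The Control values were 8.24, 8.61, 8.28 and 8.94 in CCR2+ arrays, against 12.64, 12.82, 12.55 and 12.64 in CCR2- arrays. Its differences of -4.24 (SE 0.14) and -4.14 (SE 0.14) were of a size with those of H2-DMb2 probe set 1419744_at.

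Ciita, the transactivator of the class II genes, was lower in the CCR2+ arrays by all 3 of its probe sets. Probe set 1421211_a_at of Ciita read 7.69, 7.71, 7.38 and 7.77 in CCR2+ RbpjiΔEC arrays, against 10.34, 10.54, 11.14 and 11.00 in CCR2- RbpjiΔEC arrays. In Control mice it read 8.18, 7.63, 7.87 and 7.82 in CCR2+ arrays, against 10.04, 11.19, 10.94 and 11.09 in CCR2- arrays. The groups were separate by more than their ranges, with differences of -3.12 (SE 0.23, limma adjusted p = 7.22e-09) and -2.94 (SE 0.23, adjusted p = 1.52e-08). The other Ciita probe sets gave -2.85 and -2.80 for 1421210_at, and -2.34 and -2.59 for 1447075_at. Mouse Ciita is transcribed from several promoters used by different cell types, which these probe sets do not separate by annotation.

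Ifi30 encodes the reductase GILT, which opens disulfide bonds of engulfed proteins before peptide loading. It read 11.98, 12.24, 11.47 and 11.66 in CCR2+ RbpjiΔEC arrays, against 13.10, 12.91, 13.04 and 13 in CCR2- RbpjiΔEC arrays. Control mice gave 12.15, 11.69, 12.03 and 12.37 in CCR2+ arrays, against 12.93, 13.02, 13.04 and 13.15 in CCR2- arrays. Its ranges did not meet, and the differences were -1.17 (SE 0.15) and -0.98 (SE 0.15). The Control difference of Ifi30 did not pass after median centring (-0.42, limma adjusted p = 0.118) or as deposited (-0.36, adjusted p = 0.181).

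Other genes of the pathway did not move as 1 group with the class II genes. The list held 36 symbols, with Marchf1 and Marchf8 also under their older names, and 31 genes were measured. In CCR2+ RbpjiΔEC arrays 9 were higher and 15 lower than in CCR2- RbpjiΔEC arrays, where 18.8% and 20.3% of all probe sets were. In Control mice 11 were higher and 17 lower, where 20.9% and 20.7% of all probe sets were. The protease genes were on the higher side: Ctsd by 2.87 in RbpjiΔEC and 2.86 in Control mice, Ctsl by 4.40 and 4.23, and Lgmn by 3.12 and 2.78. Marchf8, whose product tags class II molecules for degradation, was higher by 3.94 and 3.57, while Marchf1 of the same list was lower (-0.91 and -0.88). Cd83, which opposes that removal, was lower (-3.97 and -3.77), and so was Pax5, the B cell identity factor (-3.14 and -3.13). Ctss, the protease that completes invariant chain cleavage in B cells and dendritic cells, read 13.16 to 13.49 in all 16 arrays and did not pass (0.12 in each genotype, limma adjusted p = 0.221 in RbpjiΔEC and 0.219 in Control mice). Rfx5, a subunit of the X box factor, was lower by a modest amount (-0.82 and -0.86), and H2-Eb2, a further I-E beta gene, by more (-2.44 and -2.74). H2-Ea, whose promoter is defective in C57BL/6 mice so that no I-E alpha chain is made, read 7.12 to 8.24 by its highest probe set and did not pass (-0.13 and -0.27). Its probe set 1422892_s_at was lower (-1.02 and -1.22), from CCR2+ values in the range of the trp control. H2-Ea probe set 1426202_at, at the trp level in every group, gave -0.10 and 0.28, the second called higher (limma adjusted p = 0.042).

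B cell genes moved in the same direction as the class II genes between the labels. Of 10 listed B cell markers 9 were measured, and all 9 were lower in the CCR2+ arrays in both genotypes, with a median difference of -5.55 in RbpjiΔEC and -5.51 in Control mice. Their summed linear level was 1196 to 1274 in CCR2+ RbpjiΔEC arrays, against 56028 to 59450 in CCR2- RbpjiΔEC arrays. In Control mice it was 1089 to 1342 in CCR2+ and 57120 to 58831 in CCR2- arrays. Among defining markers, Cd79a averaged 7.65 in CCR2+ Control and 12.78 in CCR2- Control arrays, and Fcrla was at the trp level in both CCR2+ groups. Of 9 measured dendritic cell markers 6 were lower in RbpjiΔEC and 7 in Control mice, with Flt3 at -1.97 and -1.69 and Zbtb46 at -0.93 and -1.13 by their highest probe sets, and all 8 markers of large peritoneal macrophages were higher in both genotypes. The part of these cells in the class II differences was not tested, and in sorted bulk RNA fewer cells of a type and less RNA per cell cannot be told apart.

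Within the CCR2+ arrays the genotype comparison asks what loss of endothelial Rbpj did to these cells, and 1 class II probe set passed. Of the 20 probe sets 1 was lower in CCR2+ RbpjiΔEC than in CCR2+ Control arrays and none was higher (limma, adjusted p under 0.05), where 0.00572% of all probe sets were called. The other call among all probe sets was Arfgef2, which encodes an exchange factor of vesicle transport, at -0.71 (adjusted p = 0.0492). At an unadjusted limma p under 0.05 there were 6 member probe sets and 1713 of all probe sets (4.9%). The estimates were negative for 19 of 20 member probe sets, with a median of -0.25. Over all probe sets 52.8% were negative, with a median of -0.01. Probe sets of 1 gene share their transcript and all share the arrays, so these are not separate observations.

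**Figure D3:**
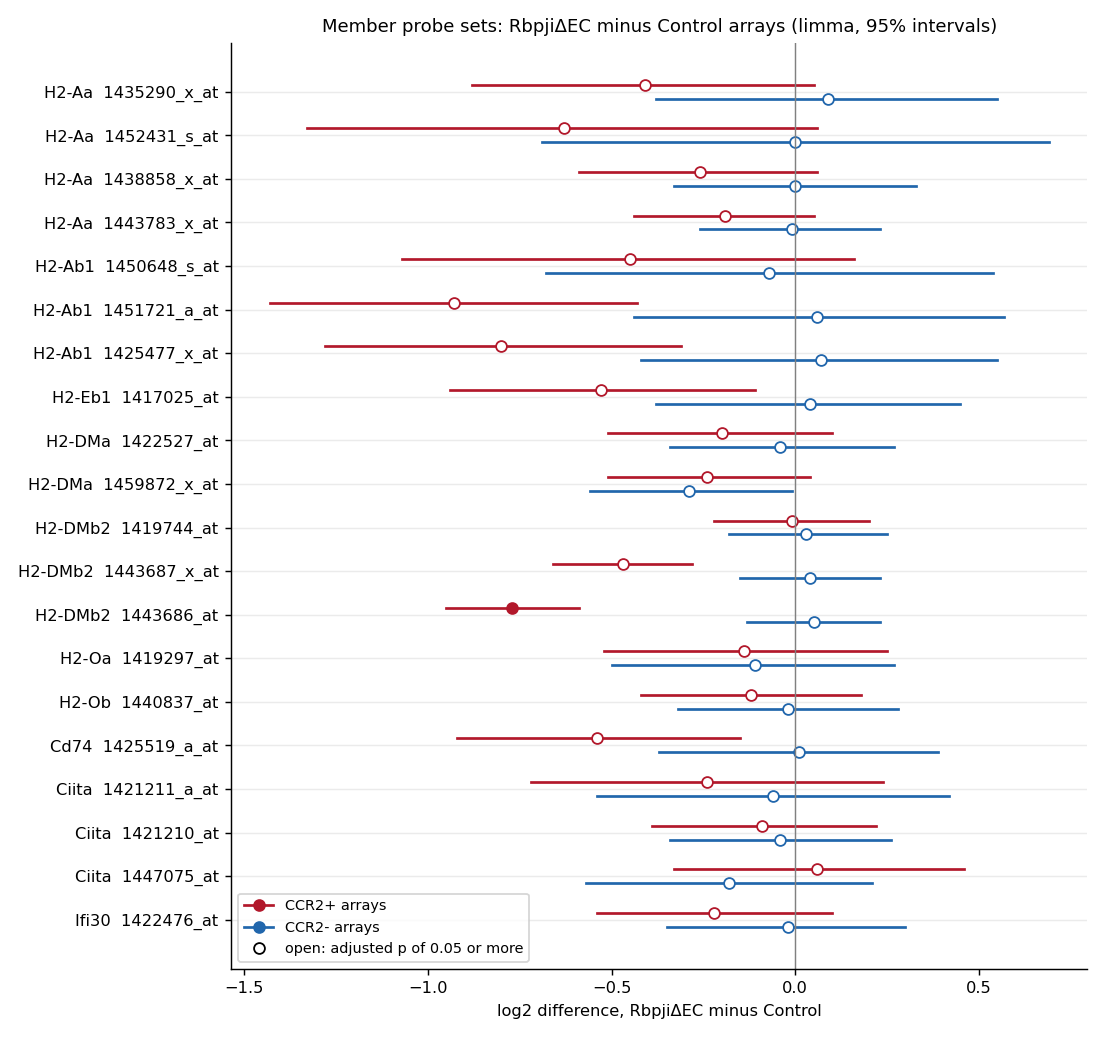
Log2 difference, RbpjiΔEC minus Control arrays, of the 20 member probe sets with 95% limma intervals, in CCR2+ (red) and CCR2- arrays (blue); open points did not pass. H2-DMb2 1443686_at in the CCR2+ arrays, at -0.77, is the only filled point, and the CCR2+ point of H2-Ab1 1451721_a_at lies farthest from 0 at -0.93.

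The probe set that passed was H2-DMb2 1443686_at, whose values by array are given above: 7.02 to 7.10 in the 4 CCR2+ RbpjiΔEC arrays, against 7.71 to 8.09 in the 4 CCR2+ Control arrays. The ranges did not overlap, and the difference was -0.77 (SE 0.09, 1.71-fold lower, limma adjusted p = 0.00375). H2-DMb2 1443687_x_at, annotated with the same sequence record, read 7.53, 7.44, 7.09 and 7.41 in CCR2+ RbpjiΔEC arrays, against 7.85, 7.76, 7.81 and 7.93 in CCR2+ Control arrays. These ranges did not overlap either, but the difference of -0.47 (SE 0.09) did not pass (limma adjusted p = 0.209). H2-DMb2 1419744_at, which had the highest levels, read 8.97, 9.17, 9.23 and 9.08 in CCR2+ RbpjiΔEC arrays, against 9.09, 9.06, 9.44 and 8.91 in CCR2+ Control arrays, with ranges that overlapped and a difference of -0.01 (95% interval -0.22 to 0.20). The probe sets of H2-DMb2 disagreed on the genotype difference.

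**Figure D4:**
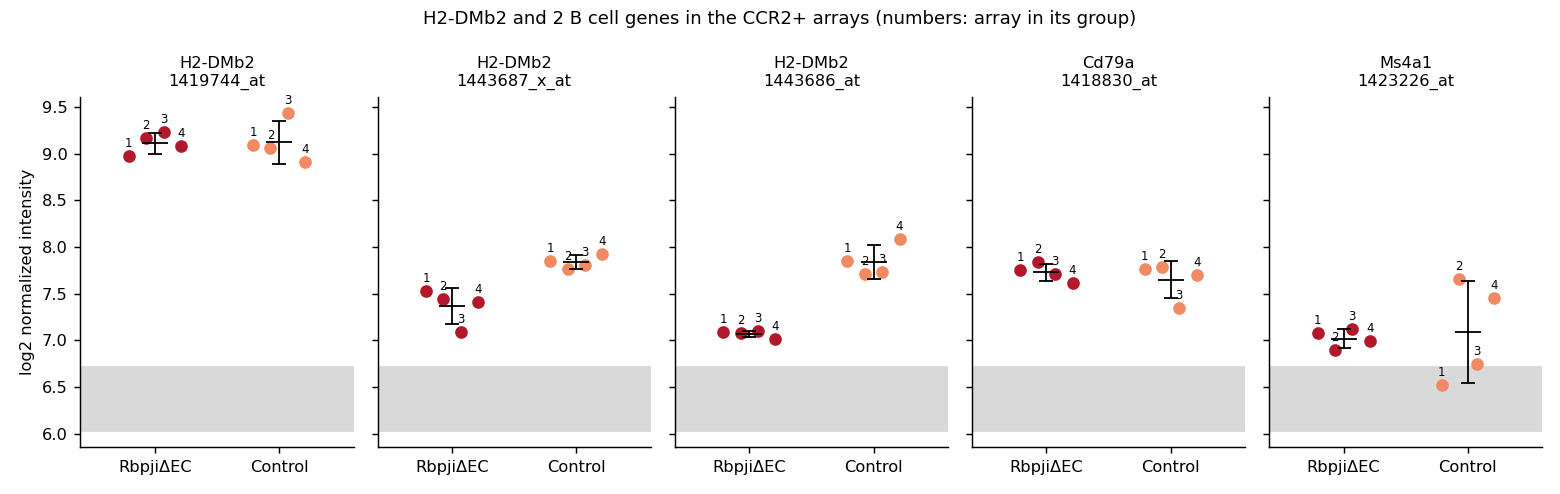
Log2 normalized intensity of the 3 H2-DMb2 probe sets and of the B cell genes Cd79a and Ms4a1 in the CCR2+ arrays, RbpjiΔEC left of Control; points are arrays with their number, black bars the mean and SD of 4 arrays, and the grey band is the trp control. The RbpjiΔEC arrays lie below the Control arrays for 1443686_at (7.02 to 7.10 against 7.71 to 8.09) and overlap them for 1419744_at, Cd79a and Ms4a1.

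The call for H2-DMb2 1443686_at rested on the processing. It was lost after median centring (-0.82, limma adjusted p = 0.304), as deposited (-0.78, adjusted p = 0.438), and when the 8 arrays of the compared groups were fitted alone (-0.77, adjusted p = 0.421). Beside it none of the 9 measured B cell markers passed, with Cd79a at 0.07 and Ms4a1 at -0.07. Their summed level was 1196 to 1274 in CCR2+ RbpjiΔEC and 1089 to 1342 in CCR2+ Control arrays. Ms4a1 ranged from 6.52 to 7.66 within the CCR2+ Control arrays. The part of B cells in the H2-DMb2 difference was not tested.

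The chain genes and Cd74 had negative estimates that did not pass. H2-Ab1 differed by -0.93 (SE 0.24, limma adjusted p = 0.677) by 1451721_a_at, by -0.80 (adjusted p = 0.855) by 1425477_x_at and by -0.45 by 1450648_s_at. H2-Eb1 differed by -0.53 (SE 0.20), Cd74 by -0.54 (SE 0.18) and H2-Aa by -0.63 (SE 0.33) by 1452431_s_at, -0.41 (SE 0.22) by 1435290_x_at, -0.26 by 1438858_x_at and -0.19 by 1443783_x_at, each with a limma adjusted p of 0.962. In all of these the CCR2+ RbpjiΔEC and CCR2+ Control ranges overlapped. Each SE came from a spread shared by all 16 arrays. H2-Eb1 had SDs of 0.55 in CCR2+ RbpjiΔEC and 0.24 in CCR2+ Control arrays. In CCR2- RbpjiΔEC and CCR2- Control arrays they were 0.02 and 0.08. The shared SE of H2-Eb1 is thus too small for the CCR2+ arrays, and the same holds for Cd74, H2-Aa 1452431_s_at and H2-Ab1 1451721_a_at. CCR2+ RbpjiΔEC array 2 was the lowest of its group in H2-Aa, H2-Ab1, H2-Eb1 and Cd74, and array 4 was the highest in each. Array 2 was also the highest of its group in several monocyte and small macrophage markers. Among them were F13a1 (11.74, others 8.11 to 10.22), Retnla (11.72, others 9.74 to 10.38) and Mrc1 (9.89, others 8.84 to 9.36). It also read highest in Ccr2 (8.23, others 7.11 to 7.82) and Folr2 (9.90, others 8.40 to 9.76). It was not the highest in Cx3cr1 (8.45, array 1 8.84) or Irf4 (10.68, array 3 10.80), and it was the lowest in Cd226 (6.08, others 6.19 to 6.27). Of 8 such markers measured none passed between the CCR2+ genotypes, their summed linear level was 4241 to 11060 in CCR2+ RbpjiΔEC and 5157 to 6352 in CCR2+ Control arrays, Cd226 was at the trp level in both, and their part in the class II differences was not tested. Without array 2 the differences were -0.67 for H2-Ab1 1451721_a_at, -0.30 for H2-Eb1, -0.40 for Cd74 and -0.17 for H2-Aa 1435290_x_at, and without array 4 they were -1.15, -0.74, -0.76 and -0.61. The 3' minus 5' actin signal, a log2 measure of RNA quality, was 0.355, 0.205, 0.374 and 0.384 in the CCR2+ RbpjiΔEC arrays, against 0.162, 0.245, 0.275 and 0.191 in the CCR2+ Control arrays, and its part in these differences was not tested.

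No probe set of the remaining genes passed between the genotypes in the CCR2+ arrays. H2-DMa 1459872_x_at read 7.27, 7.37, 7.38 and 7.33 in RbpjiΔEC, against 7.51, 7.43, 7.70 and 7.66 in Control arrays, ranges that did not overlap, yet the difference of -0.24 did not pass (limma adjusted p = 0.962). It was the last of 3 member probe sets, with 2 of H2-DMb2, whose RbpjiΔEC range lay wholly below the Control range, which held for 1.44% of all probe sets (3.19% when both directions are counted). H2-DMa 1422527_at differed by -0.20, Ifi30 by -0.22, H2-Oa by -0.14 and H2-Ob by -0.12. Ciita differed by -0.24, -0.09 and 0.06 by its 3 probe sets, the last of them the only positive estimate, and the 95% intervals of all 3 held 0. None of the 31 measured pathway genes passed. Of the 6 with the smallest p, Irf1, an interferon-induced factor, was at -0.36, Spi1 at -0.32 and Ifngr2 at -0.22. Marchf8 was at 0.41, Cd80 at 0.41 and Cd86 at 0.20. Each had a limma adjusted p of 0.962, and the CCR2+ RbpjiΔEC and CCR2+ Control ranges of each overlapped.

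Within the CCR2- arrays no member probe set passed between the genotypes, and no probe set among all did (0%). An unadjusted limma p under 0.05 was found for 1 member probe set and for 792 of all (2.27%). The member estimates lay between -0.29 and 0.09, with a median of -0.01, beside 0.00 over all probe sets. With 95% intervals, H2-Eb1 was at 0.04 (-0.38 to 0.45) and Cd74 at 0.01 (-0.37 to 0.39). H2-DMb2 1443686_at was at 0.05 (-0.13 to 0.23) and Ciita 1421211_a_at at -0.06 (-0.54 to 0.42). These intervals use the spread shared by all 16 arrays. H2-Eb1, Cd74 and H2-DMb2 1443686_at read near the top of the scale in the CCR2- arrays, where a difference is compressed. Their intervals therefore do not bound a change in RNA. H2-DMa 1459872_x_at had the lowest estimate at -0.29 (-0.56 to -0.01), with ranges of 7.46 to 7.87 in RbpjiΔEC and 7.57 to 8.33 in Control arrays that overlapped. No member probe set had groups that did not overlap, where 1.56% of all probe sets had such groups and 0.687% had them with RbpjiΔEC below Control. None of the 31 measured pathway genes passed here either.

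The genotype differences were not shown to depend on the label. In the interaction test 0 of 20 member probe sets and 0% of all probe sets passed. An unadjusted limma p under 0.05 was found for 5 member probe sets and for 1147 of all (3.28%). H2-DMb2 1443686_at had the smallest adjusted p of the members at 0.141, with an interaction of -0.82 (SE 0.12). H2-Ab1 1451721_a_at gave -0.99 (SE 0.34, limma adjusted p = 0.998) and Cd74 -0.55 (SE 0.26, adjusted p = 0.998). All 20 interactions lay between -0.99 and 0.24, the highest being that of Ciita 1447075_at.

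The members varied together in part, and differently under the 2 labels. Across the 8 CCR2+ arrays, as deviations from the group means of each gene's highest probe set, H2-Ab1 and H2-Eb1 correlated at 0.98, Cd74 with H2-Eb1 at 0.92 and with H2-Ab1 at 0.90, and H2-Aa with H2-Ab1 at 0.86. Ifi30 correlated at -0.81 with H2-Aa, -0.68 with H2-Ab1 and -0.56 with H2-Eb1, and Ciita at 0.36 with Cd74. Without CCR2+ RbpjiΔEC array 2 the values were 0.96 for H2-Ab1 with H2-Eb1, 0.62 for H2-Aa with H2-Ab1 and 0.52 for Ciita with Cd74. Ifi30 then correlated at -0.68 with H2-Aa, -0.41 with H2-Ab1 and -0.19 with H2-Eb1. In the 8 CCR2- arrays Ciita correlated with Cd74 at 0.97 and with H2-Oa at 0.97, and without CCR2- Control array 1, which was lowest of its group in 7 of the 10 genes and had the lowest deposited mean (481), at 0.95 and 0.93. The points share arrays and their normalization, and the correlations are descriptions of these 8 arrays each.

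**Figure D5:**
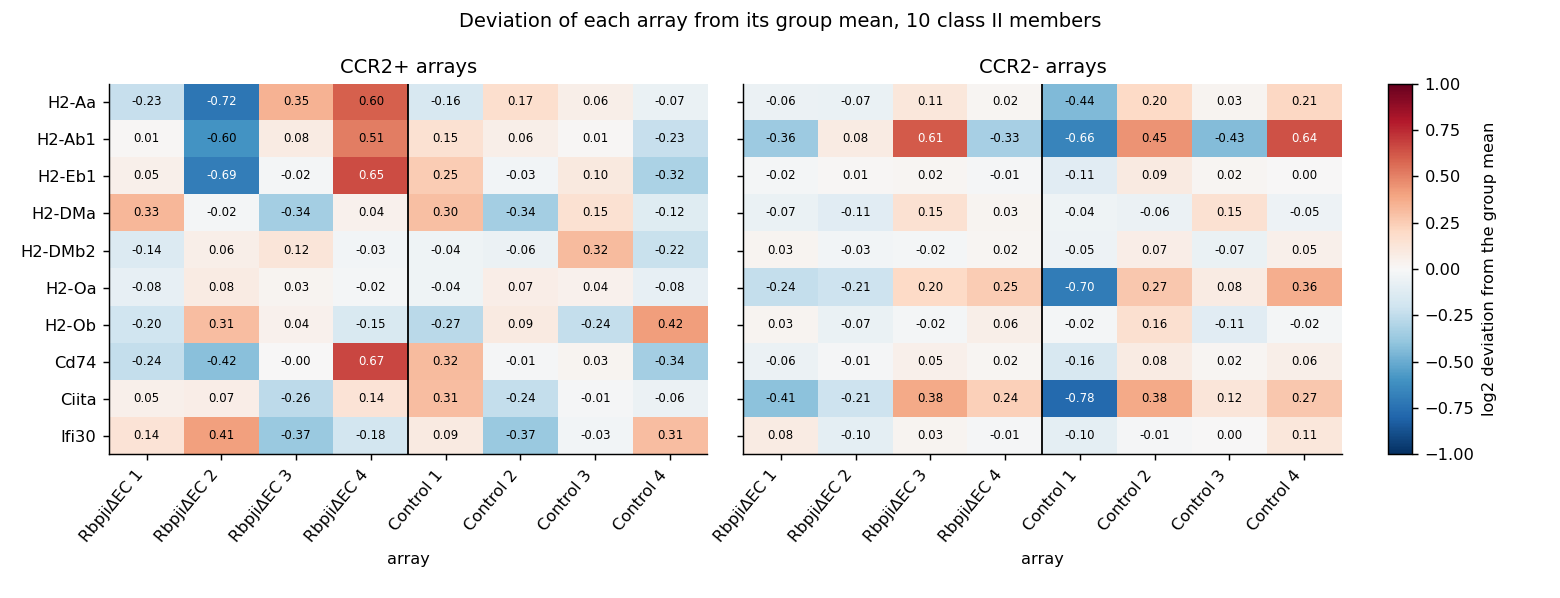
Deviation of each array (columns) from its group mean on the log2 scale, for the highest probe set of the 10 genes (rows), in CCR2+ and CCR2- arrays; red is above and blue below the group mean. CCR2+ RbpjiΔEC array 2 is at -0.72, -0.60, -0.69 and -0.42 for H2-Aa, H2-Ab1, H2-Eb1 and Cd74, array 4 at 0.60, 0.51, 0.65 and 0.67, and CCR2- Control array 1 at -0.70 for H2-Oa and -0.78 for Ciita.

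The spread of the members also differed between the labels. By each gene's highest probe set, the SD of the deviations of H2-Eb1 was 0.42 under the CCR2+ label and 0.06 under the CCR2- label. It was 0.39 and 0.08 for Cd74, 0.31 and 0.08 for Ifi30, and 0.18 and 0.05 for H2-DMb2. The order was the other way round for H2-Oa (0.07 and 0.39), Ciita (0.20 and 0.46) and H2-Ab1 (0.34 and 0.56), but not for every probe set of the last 2 genes. H2-Ab1 1451721_a_at had group SDs of 0.60 and 0.43 under the CCR2+ label, against 0.08 and 0.13 under the CCR2- label, and 1425477_x_at had 0.60 and 0.36, against 0.12 and 0.11. Ciita 1421210_at had 0.22 and 0.22, against 0.25 and 0.15. H2-Eb1, Cd74, Ifi30 and H2-DMb2 read close to the upper end of the scale in the CCR2- arrays. H2-Oa read close to the trp control in the CCR2+ arrays. Spread can be compressed at such levels, and the kind of column also differed between the labels. The part of either in these spreads was not tested.

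The 5 non-member genes whose deviations were most like the mean deviation of H2-Aa, H2-Ab1, H2-Eb1 and Cd74 over the 16 arrays were Kpna6 (r = 0.88), Gmeb1 (0.84), Asb1 (0.83), Fpr-rs4 (0.82) and 4930579K19Rik (0.82). Within the 8 CCR2+ arrays these correlations were 0.90, 0.86, 0.81, 0.85 and 0.85, and within the 8 CCR2- arrays 0.84, 0.88, 0.88, 0.78 and 0.92. They are the highest of all genes tested, and their own deviations were small, with SDs of 0.05 to 0.18, and Fpr-rs4 lay at the level of the trp control (mean 6.31 under the CCR2+ and 6.37 under the CCR2- label).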

How the data were processed

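Linear probe set intensities were used as deposited by the authors for 45101 probe sets on 16 arrays. Background correction, summarization of probes and normalization behind the deposited intensity values are not given in the sources used here. Columns labelled CCR2+ have near-equal array means, and those labelled CCR2- do not. Gene symbols came from the platform annotation, in which 34958 probe sets carry 1 symbol, 932 several and 9211 none. Only the first were tested.

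Intensities were log2 transformed and quantile normalized over the 16 arrays. The test was that of limma 3.58.1 (R 4.3.3, lmFit and eBayes, 1 mean per group, all 16 arrays, two-sided), with Benjamini-Hochberg adjustment over the 34958 probe sets and a threshold of 0.05. The 5 comparisons were genotype within each label, label within each genotype, and the interaction. The method was tested on simulated data. No low-value filter was applied, so all 20 member probe sets were tested. Errors are limma standard errors (SE), from a spread per probe set shared by all 16 arrays, or SDs over 4 arrays. Where the spread differs between the labels, a shared SE is too small for the more variable arrays and too large for the others. No scan dates or detection calls were used, so batches were not tested. The precision is limited by the 4 arrays per group.

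The members and lists were chosen with earlier results of these data known. The rule for named genes takes every member probe set, up to 6 pathway genes per comparison with the smallest p, up to 3 genes per marker list with the highest mean, the markers Cd79a, Ms4a1, Adgre1, Itgam, Flt3, Zbtb46 and Ccr2, Rbpj, and the 5 genes most like the chains. A further marker in that rule is not reported here. Arfgef2, Ctss, Rfx5, H2-Eb2, H2-Ea, Marchf1, Fcrla, F13a1, Folr2, Cx3cr1 and Cd226 were named outside it, after their values were seen. Other marker lists were counted too: of 8 monocyte and small peritoneal macrophage markers 1 was higher and 1 lower under the CCR2+ label in RbpjiΔEC mice, and none higher and 3 lower in Control mice. Lower T and NK cell markers numbered 2 of 8 in RbpjiΔEC and 1 of 8 in Control mice, and of 4 neutrophil markers 1 was higher in each. Alternatives were median centring, values as deposited, leaving out the lowest tercile, 1 probe set per gene, eBayes with trend and robust, array weights, the compared groups alone, a replicate block, each array left out in turn and, chosen after seeing the data, quantile normalization within a label.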

Additional observations from a re-analysis of the deposited data

Results flagged for a closer look

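Among 80 groups of 4 arrays (20 member probe sets in 4 groups), 3 held an array whose gap to the nearest other array took up most of the group's range, and chance alone flags about 1 group in 20. For H2-Aa probe set 1438858_x_at, CCR2+ Control array 3 read 10.94, against 10.69 to 10.70 in the other 3 arrays. For the same H2-Aa probe set, CCR2- RbpjiΔEC array 2 read 9.97, against 10.07 to 10.09. For H2-DMa probe set 1422527_at, CCR2- Control array 3 read 12.60, against 12.40 to 12.41. No member probe set had an interaction that passed.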

How the results depend on the processing

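No called difference changed sign under any alternative. Among the values of single member probe sets, 16 calls were lost with other settings and 17 with an array left out, and 1 was gained. Among all recomputed member values the sign changed, each time of a difference that had not passed, in 43 of 329 in the CCR2- genotype comparison, 5 of 329 in the CCR2+ one, 15 of 449 in the interaction, 0 of 309 between the labels in RbpjiΔEC mice and 4 of 309 in Control mice. In the CCR2+ genotype comparison 0 member probe sets and 0 of all probe sets passed after median centring, as deposited, with 1 probe set per gene, with the compared groups alone, and with quantile normalization within the label, where H2-DMb2 1443686_at gave -0.82 (limma adjusted p = 0.402). With 1 probe set per gene H2-DMb2 was represented by 1419744_at, so 1443686_at was not tested there and could not keep its call. With array weights 5 of all probe sets passed. The largest limma adjusted p of H2-DMb2 1443686_at was 0.438. It kept its call without each of the 8 CCR2+ arrays in turn (adjusted p = 0.00309 to 0.0324). Leaving out single CCR2- arrays, which share in its spread, was not assessed for this call. With 1 probe set per gene 9 members passed between the labels in RbpjiΔEC mice and 8 in Control mice, out of 7107 and 7423 genes, since fewer values were tested. Causes of the other changes were not tested.

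Each array was left out only for the comparisons that use its group. With an array left out, the CCR2+ genotype comparison called 1 to 4 probe sets (1 member each time). It called 1 without Control array 1, Control array 4 or RbpjiΔEC array 4, and 4 without Control array 3 or RbpjiΔEC array 2. The CCR2- one called 0 to 1 (0 members), with 1 called without Control array 1 or 2. The label comparisons called 12455 to 13193 (17 to 18 members) in RbpjiΔEC mice and 13321 to 14275 (17 to 18 members) in Control mice, and the interaction 0. Same-numbered arrays correlated at -0.36 to 0.10 in the CCR2+ genotype comparison and at -0.09 to 0.19 in the CCR2- one, with 0 and 3 of 8 arrays correlating best with their own number. Between the labels they correlated at 0.02 to 0.24 in RbpjiΔEC and -0.03 to 0.37 in Control mice, with 5 of 8 arrays best with their own number in each. In no comparison were all 4 pairs over 0.1 and no label pairs the arrays, so they were not treated as paired. No label says whether CCR2+ and CCR2- arrays share animals. With the replicate block 2, 0, 13763, 14589 and 0 probe sets passed in the CCR2+ genotype, CCR2- genotype, RbpjiΔEC label, Control label and interaction tests, with 1, 0, 19, 18 and 0 members. As deposited, the median difference over all probe sets was 0.23 between the labels in RbpjiΔEC mice, 0.03 in Control mice, -0.16 between the CCR2- genotypes and 0.16 in the interaction, beside -0.02, -0.02, 0.00 and -0.01 after quantile normalization. Levels near the trp control and near the top of the scale limit what these arrays can show.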
